A study of Homo sapiens with 4 samples.

Results

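The mitotic genes described here were 53 listed genes of G2 and mitosis, out of 60725 genes in the count table. The rule is a list of names (entry kinases and cyclins, checkpoint, kinetochore, passenger complex, kinesin, spindle and cytokinesis genes) with no threshold on measured values, though the list was drawn up with earlier results of these data known. Each of the 53 had enough reads to be tested, as did 15356 genes in all. RNA-seq was performed on polyA RNA from RPE1 SunTag cells, an hTERT-immortalized human retinal pigment epithelial line that carries the SunTag reporter system. All 4 libraries share this background, 10 nM of siRNA and the same schedule, in which cells were transfected again after 48 h and harvested a further 72 h later, on day 5. The 2 control libraries received the Silencer Select Negative Control No. 2 siRNA and the 2 knockdown libraries the Dharmacon ON-TARGETplus SMARTpool against TOP2B, so that the loss of TOP2B and the change of siRNA cannot be told apart. The comparison asks how the transcripts that build and run the mitotic spindle differ after TOP2B depletion.

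At the entry into mitosis, cyclin-bound CDK1 and the Polo and Aurora kinases set off chromosome condensation and spindle assembly. Kinetochores then form on the centromeres and capture microtubules, the spindle checkpoint holds back the anaphase-promoting complex until every chromosome is attached, and separase opens the cohesin rings so that the sister chromatids part. Kinesins push and crosslink the microtubules throughout, and an anillin and RhoA ring at the cell equator completes cytokinesis. Most of these genes are transcribed late in the cell cycle through promoters bound by NF-Y, the MuvB complex, B-MYB and FOXM1, and the DREAM complex silences many of them in resting cells.

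TOP2B, the target of the siRNA pool, was at 155 and 144 CPM (read counts scaled by TMM to a common library size) in the control replicates and at 15.3 and 13.3 CPM in the knockdown replicates. Its log2 fold change was -3.38 (standard error 0.14, adjusted p = 5.1e-06, edgeR's quasi-likelihood test). The libraries held 20310259 to 23887013 counted reads, and the mitotic genes took 0.716% and 0.648% of them in the control replicates against 0.845% and 0.760% in the knockdown replicates. Of 8 retinal pigment epithelium markers, MITF (38.2 to 44.8 CPM) and OTX2 (11.2 to 13.4 CPM) were expressed in each library. BEST1 (0.61 to 0.99 CPM) and PMEL (0.31 to 1.46 CPM) passed the count filter at low levels and were not called. The defining visual cycle and pigment genes RPE65, RLBP1, TYR and TYRP1 had too few reads to be tested. Of 6 markers of blood, endothelium, liver, glia and red cells, only PECAM1 passed the count filter, and it was at or below 1.00 CPM in each library. Of 7 epithelial and mesenchymal markers, 5 were tested and FN1 (fibronectin) was called, with a log2 fold change of 1.13 (adjusted p = 0.0103, edgeR). The epithelial genes CDH1 and EPCAM had too few reads to be tested. The keratins KRT8 and KRT18 had log2 fold changes of -0.35 and -0.39 and were not called, with both knockdown libraries below both control libraries, and VIM and CDH2 had values of -0.03 and 0.23. The part of this difference in the values of the mitotic genes was not tested.

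Some of the mitotic genes were moderately higher in TOP2B-depleted cells, and most were not called when condition was the only term in the fit. Taking an adjusted p under 0.05 in edgeR's quasi-likelihood test as a call, 10 of the 53 genes rose and 0 fell, with fold changes between 1.33 and 1.73. The 10 were CDK1, TTK, ESPL1, SPC24, SPC25, CENPK, KIF11, KIF15, KIF20A and NUSAP1. Among all genes tested, 6.66% were called higher and 4.18% lower by the same test. At an unadjusted p below 0.05, 21 mitotic genes were higher and 0 lower, against 2228 and 1812 of all 15356 genes tested. DESeq2 called 9 mitotic genes higher and 0 lower, against 917 and 645 of all genes tested. With the replicate number added to the edgeR fit as a block, 38 were higher and 2 lower, against 3440 and 3346. No label ties the same-numbered samples. In each fit without 1 library, fewer of the 53 genes and fewer of all genes tested were called higher than with all 4 libraries. In these fits the log2 fold change lay between 0.76 and 0.83 for TTK and between 0.36 and 0.46 for CDK1, the largest and smallest rises of the 10. TTK, KIF11, SPC24 and CENPK were called in each of the 10 alternative fits.

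Over the 53 genes the median log2 fold change was 0.25 (interquartile range 0.13 to 0.39, range -0.19 to 0.79), and 48 of them lay above 0. The median over all genes tested was -0.0029, with 49.8% of genes above 0. Both knockdown libraries lay above both control libraries for 42 mitotic genes and below them for 1, against 27.7% and 26.6% of all genes tested. The summed expression was 7140 and 6504 CPM in the control and 8421 and 7654 CPM in the knockdown replicates, so both knockdown sums were above both control sums. No mitotic gene differed by more than 1 on the log2 scale, and for 23 genes the upper bound of the 95% confidence interval was under 0.5. In bulk RNA, more cells in G2 or mitosis and more of these transcripts per cell cannot be told apart. A separate cell cycle measurement in the study, by PI staining, showed no alteration after TOP2B depletion. Its cell fractions were not in the sources used here, and how small a shift it would detect is not known.

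**Figure D1:**
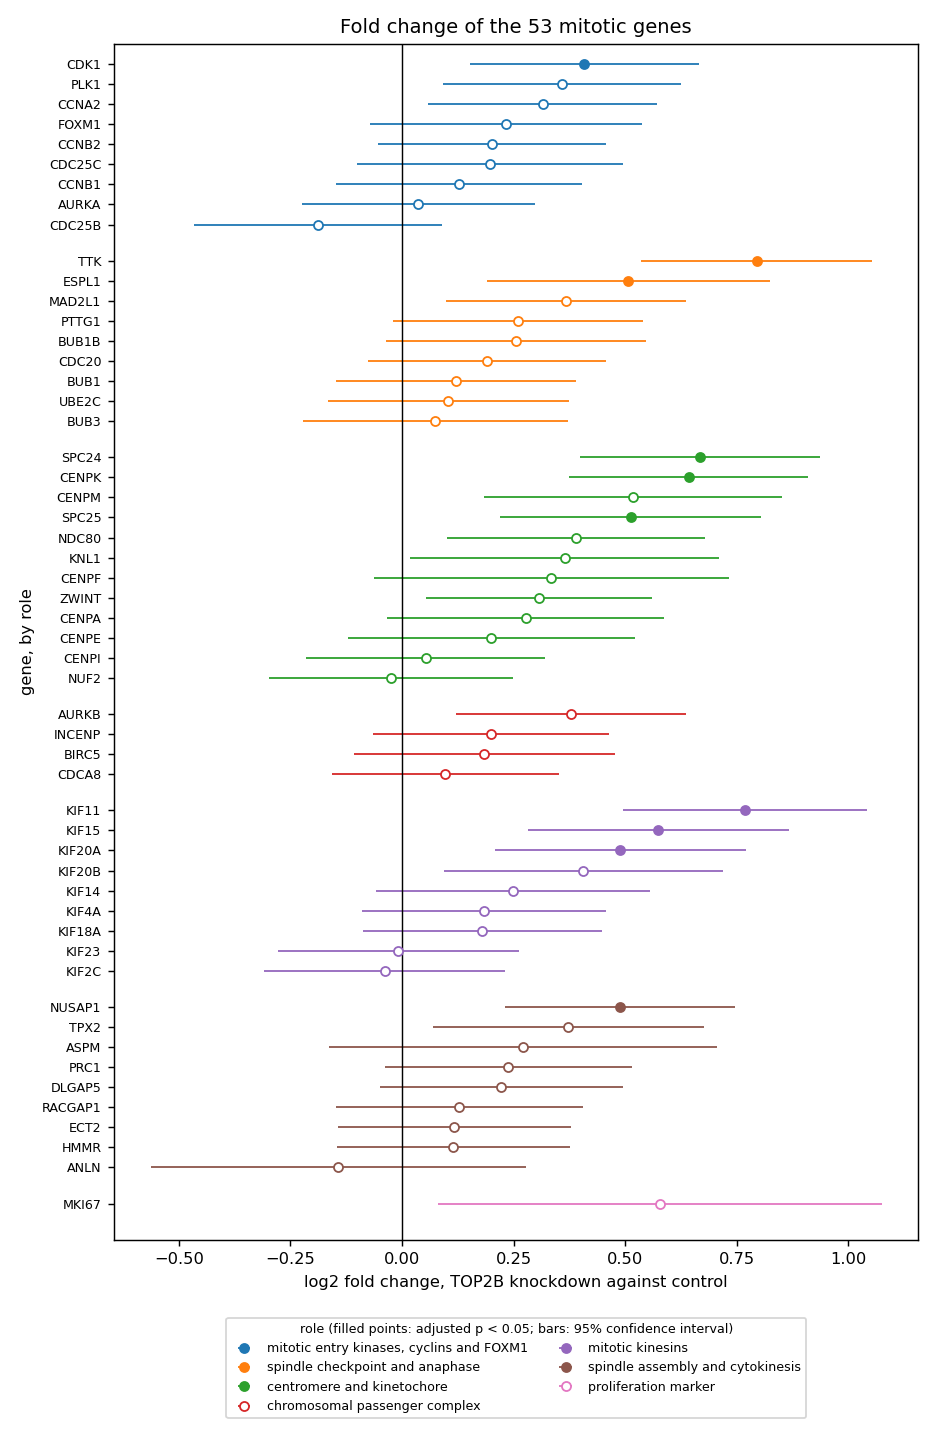
Log2 fold change of each of the 53 mitotic genes in TOP2B knockdown against control cells (x axis), grouped by role (y axis), with 95% confidence intervals from the edgeR fit on 2 libraries a group and filled points for an adjusted p below 0.05. All 10 filled points lie right of 0, TTK furthest at 0.79, and the lowest point is CDC25B at -0.19.

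The plot of fold changes by role shows that each role with more than 1 gene had a median between 0.19 and 0.35. In the chromosomal passenger complex 0 of 4 genes were called, and in each other role of this kind at least 1 was. Beside 6.66% of all genes tested called higher, roles this small are not set apart by these counts, and differences between roles were not tested. For the promoters, 43 of the 53 genes had an entry in the RefSeq table (GRCh38.p14, 250 bases before to 50 after the transcription start, the first listed start of each gene). AURKA, BIRC5, BUB3, CENPM, FOXM1, KNL1, RACGAP1, TPX2, TTK and UBE2C had none. The 250 bases before the start are printed for the 4 called genes with the smallest adjusted p that had an entry, since these are the promoters of the most firmly called rises. Capitals mark the NF-Y box CCAAT, which reads ATTGG where it lies on the other strand. They also mark the cell cycle homology region TTTGAA, which then reads TTCAAA and is the element at which MuvB complexes bind.
KIF11 (chr10:92592880-92593129, plus strand): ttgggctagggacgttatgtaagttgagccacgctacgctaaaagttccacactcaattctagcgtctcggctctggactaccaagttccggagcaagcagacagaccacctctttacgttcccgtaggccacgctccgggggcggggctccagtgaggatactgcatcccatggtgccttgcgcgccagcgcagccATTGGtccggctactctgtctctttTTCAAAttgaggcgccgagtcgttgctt
SPC24 (chr19:11155783-11156032, minus strand): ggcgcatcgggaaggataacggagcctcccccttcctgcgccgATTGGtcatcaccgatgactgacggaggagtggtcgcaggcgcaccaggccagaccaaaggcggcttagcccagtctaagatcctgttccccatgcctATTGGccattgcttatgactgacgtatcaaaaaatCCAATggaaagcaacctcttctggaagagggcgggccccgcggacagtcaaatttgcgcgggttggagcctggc
CENPK (chr5:65563169-65563418, minus strand): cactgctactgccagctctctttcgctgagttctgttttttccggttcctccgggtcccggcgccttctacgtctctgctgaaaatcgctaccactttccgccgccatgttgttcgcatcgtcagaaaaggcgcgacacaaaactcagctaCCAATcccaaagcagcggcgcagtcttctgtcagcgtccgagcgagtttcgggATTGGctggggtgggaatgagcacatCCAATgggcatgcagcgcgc
KIF15 (chr3:44761544-44761793, plus strand): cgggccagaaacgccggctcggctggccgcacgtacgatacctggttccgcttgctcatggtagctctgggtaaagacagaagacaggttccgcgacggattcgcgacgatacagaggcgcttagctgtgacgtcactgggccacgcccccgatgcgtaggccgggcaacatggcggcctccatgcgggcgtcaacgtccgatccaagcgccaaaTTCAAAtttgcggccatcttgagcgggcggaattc

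The KIF11 promoter holds an ATTGG at position -53 and a TTCAAA at position -28 from the start site, and that of KIF15 a TTCAAA at position -35 and no CCAAT. SPC24 and CENPK have 3 CCAAT boxes each and no TTTGAA in this window. On either strand, CCAAT occurred in 76.7% of the 43 mitotic promoters, against 35.7% of the promoters of all 27305 genes in the table. TTTGAA occurred in 69.8% of them against 15.4%, and the variant TTCGAA in 4.65% against 1.45%. The first base of a TTTGAA lay within 50 bases of the start site in 26 mitotic promoters (60.5%) and in 4.67% of all promoters. Of 9 promoters of called genes, 8 held CCAAT and 6 held TTTGAA, and of the 34 promoters of genes not called, 25 and 24 did. These matches describe the letters of the window and not binding in these cells.

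Promoters of genes that act in S phase served as a contrast. The E2F-type letters searched on either strand were TTCCCGC, then TTGGCGC, then TTCGCGC, and last TTGCCGC, chosen after the fold changes had been seen. At least 1 of them occurred in 34.9% of the mitotic promoters, in 75.8% of the promoters of 33 DNA replication genes and in 13.1% of all promoters. TTTGAA occurred in 3.03% of the replication promoters. Of these letters, TTGGCGC can share its first bases with an ATTGG. Among 53 promoters of other mitotic genes, 64.2% held CCAAT, 43.4% TTTGAA and 32.1% an E2F-type motif.

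**Figure D2:**
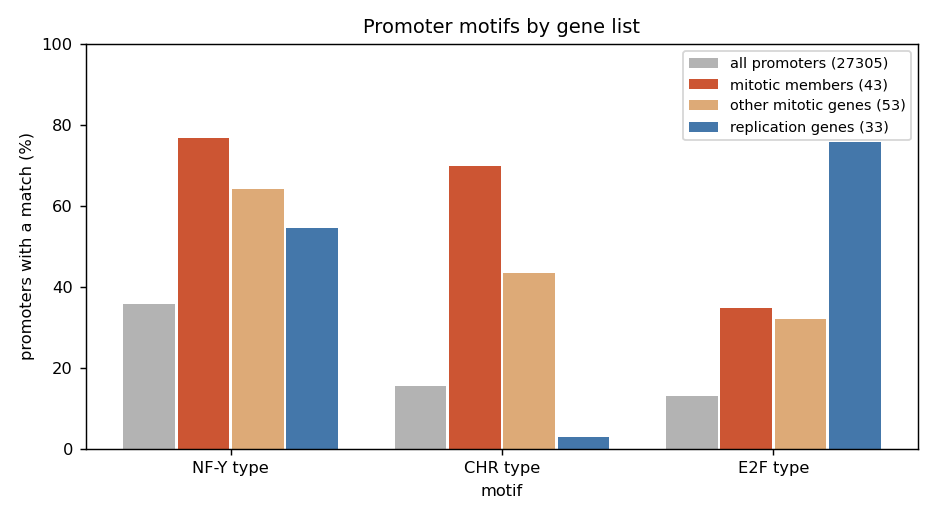
Share of promoters (y axis, percent) with at least 1 match to the NF-Y, cell cycle homology region (CHR) and E2F motifs (x axis) among all promoters, the mitotic genes, other mitotic genes and DNA replication genes. The mitotic bar for TTTGAA stands at 69.8% and the replication bar at 3.03%, while for the E2F type they stand at 34.9% and 75.8%.

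In the bars of motif shares, the mitotic promoters stand highest for the CHR motif and the replication promoters for the E2F type. Among the 9 genes of mitotic entry, CDK1, the kinase that drives it, was the 1 gene called. It was at 58.2 and 62.2 CPM in the control and at 79.2 and 80.8 CPM in the knockdown replicates. Both knockdown values lay above both control values, a difference of 0.41 on the log2 scale (standard error 0.12, adjusted p = 0.0497, edgeR). This call lay at the threshold, and without any 1 of the 4 libraries the adjusted p of edgeR was between 0.152 and 0.267. With DESeq2 it was 0.0659, and CDK1 was called in 3 of 10 alternatives.

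The cyclin partners of CDK1 were not called. CCNB1, the main mitotic cyclin, was at 139 and 126 CPM in the control and 139 and 151 CPM in the knockdown replicates (log2 fold change 0.13). CCNB2 had a log2 fold change of 0.20 and CCNA2, the cyclin of S phase and early mitosis, one of 0.32. PLK1, the Polo kinase of centrosomes and kinetochores, had a log2 fold change of 0.36 (adjusted p = 0.0868, edgeR), with 140.0 and 141 CPM against 177 and 183 CPM. AURKA, the Aurora kinase of the spindle poles, was at 138 CPM in each control and at 141 and 142 CPM in the knockdown replicates, a log2 fold change of 0.04 with a 95% confidence interval of -0.22 to 0.30.

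FOXM1, a transcription factor that activates many genes of this list, was at 257 and 297 CPM in the control and 322 and 329 CPM in the knockdown replicates (log2 fold change 0.23, adjusted p = 0.317, edgeR). The CDC25 phosphatases, which remove the inhibitory phosphates from CDK1, lay on either side of 0. CDC25C was at 17.2 and 18.4 CPM against 20.3 and 20.5 CPM (0.20 on the log2 scale). CDC25B was the 1 mitotic gene with both knockdown libraries below both control libraries, at 242 and 234 CPM against 212 and 205 CPM (log2 fold change -0.19, adjusted p = 0.379, edgeR). Other annotated genes on either strand cover 15.9% of the exon bases of FOXM1 and 12.8% of those of PLK1. It is not stated whether counting used strand, so how this overlap affects their values is not known.

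Of 9 genes of the spindle checkpoint and of anaphase, TTK and ESPL1 rose. TTK (ENSG00000112742, chr6:80003887-80042527 in GRCh38), the MPS1 kinase that starts checkpoint signalling at unattached kinetochores, had the largest rise of all 53 genes. It was at 38.4 and 36.7 CPM in the control and 64.4 and 65.9 CPM in the knockdown replicates, from 837 to 1364 reads per library. The replicates of a condition lay close together and the conditions far apart (difference 0.79 on the log2 scale, standard error 0.12, adjusted p = 0.00307, edgeR). ESPL1, the separase that cleaves cohesin, was at 75.9 and 62.1 CPM against 106 and 89.7 CPM. Its groups did not overlap, but within each condition replicate 1 was higher than replicate 2 (log2 fold change 0.51, standard error 0.14, adjusted p = 0.0490, edgeR). The call was lost without control replicate 2 (adjusted p = 0.304, edgeR), without knockdown replicate 1 (0.248), with the size factors of DESeq2 (0.0513), with library size alone and with a mean of 100 counts required, so that ESPL1 was called in 5 of 10 alternatives.

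The other checkpoint genes were not called. MAD2L1, whose product joins the complex that inhibits CDC20, was at 51.1 and 55.6 CPM in control and 65.7 and 72.0 CPM in knockdown cells (log2 fold change 0.37, adjusted p = 0.0830, edgeR). BUB1B, the BUBR1 checkpoint protein, and PTTG1, the securin that holds separase inactive, each had a log2 fold change of 0.26. CDC20, the activator of the anaphase-promoting complex, had one of 0.19, and BUB1, a kinetochore kinase, one of 0.12. UBE2C, the ubiquitin-conjugating enzyme of that complex, and BUB3, the adaptor of BUB1 and BUBR1, had values of 0.10 and 0.07, and their control and knockdown libraries overlapped. The securin transcript was at 102 and 101 CPM in the control and 112 and 131 CPM in the knockdown replicates.

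The kinetochore genes had the highest median of the roles with more than 1 gene, 0.35 over 12 genes, and 3 of them rose. SPC24 (ENSG00000161888, chr19:11131520-11155807) and SPC25, which form the inner end of the Ndc80 complex, the main microtubule coupler of the kinetochore, were both called. SPC24 was at 32.5 and 36.0 CPM in the control and 53.5 and 55.3 CPM in the knockdown replicates (log2 fold change 0.67, standard error 0.12, adjusted p = 0.00807, edgeR). SPC25 was at 17.1 and 18.2 CPM against 24.5 and 25.8 CPM (0.51, standard error 0.13, adjusted p = 0.0350, edgeR), and its adjusted p was between 0.0732 and 0.162 without any 1 library and 0.0618 with DESeq2. In both genes each knockdown value lay above each control value.

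The subunits of the outer end were not called. NDC80, the microtubule-binding subunit, was at 48.7 and 40.8 CPM in control and 60.8 and 56.5 CPM in knockdown cells (log2 fold change 0.39, adjusted p = 0.0866, edgeR). NUF2, the partner of NDC80, was at 61.2 and 54.7 CPM against 59.4 and 54.5 CPM, with overlapping groups and a log2 fold change of -0.02 (95% confidence interval -0.30 to 0.25). The interval of NDC80 (0.10 to 0.68) overlapped that of SPC25 (0.22 to 0.81), and differences between the subunits were not tested.

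CENPK (ENSG00000123219, chr5:65517766-65563168), a subunit of the constitutive centromere network, rose from 24.7 and 24.1 CPM to 37.9 and 38.3 CPM (log2 fold change 0.64, standard error 0.12, adjusted p = 0.00958, edgeR). CENPM of the same network was at 13.1 and 15.8 CPM in control and 20.1 and 21.3 CPM in knockdown cells. Its groups did not overlap, with a log2 fold change of 0.52 and an adjusted p just above the threshold (0.0546, edgeR), which became 0.281, 0.0363, 0.0803 and 0.183 without control replicate 1, control replicate 2, knockdown replicate 1 and knockdown replicate 2. DESeq2 gave 0.0958. CENPI, a further subunit, had a log2 fold change of 0.05 with overlapping libraries. The centromeric histone CENPA had one of 0.28, from 18.4 and 17.0 CPM to 22.7 and 20.1 CPM.

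Among the large outer kinetochore genes, KNL1, the scaffold that recruits BUB1, was at 97.8 and 78.7 CPM in the control and 127 and 99.97 CPM in the knockdown replicates (log2 fold change 0.36). CENPF, a fibrous corona protein, was at 366 and 282 CPM against 462 and 354 CPM, so that the groups overlapped (0.33). The kinesin CENPE, which carries chromosomes to the spindle equator, had a log2 fold change of 0.20 with overlapping groups, and ZWINT, an adaptor of KNL1, one of 0.31 without overlap. None of these passed the adjusted threshold.

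**Figure D3:**
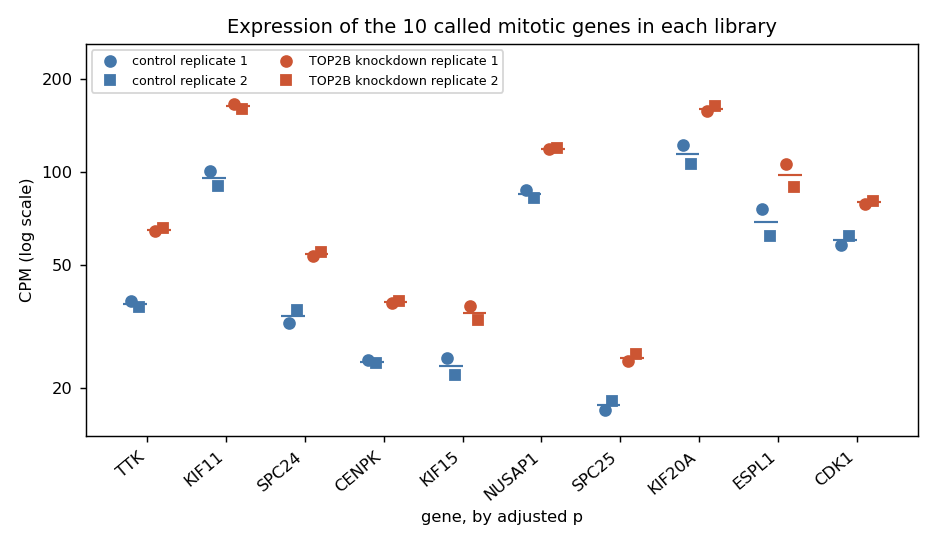
Expression (y axis, CPM on a log scale) of the 10 called mitotic genes (x axis, by adjusted p) in each of the 4 libraries, with short lines at the mean of each condition (n = 2). For each gene both knockdown points lie above both control points, and the replicates of ESPL1 lie furthest apart.

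In the plot of the called genes by library, the gap between conditions is wider than the gaps within them for each gene except ESPL1. The chromosomal passenger complex, which corrects wrong attachments of kinetochores to microtubules, had no called gene among its 4 members (median log2 fold change 0.19). DESeq2 called 0 of the 4. At an unadjusted p below 0.05 in edgeR, 1 of the 4 was higher, against 2228 of all 15356 genes tested. That gene was AURKB, the catalytic kinase, at 73.1 and 76.9 CPM in control and 99.9 and 95.1 CPM in knockdown cells (log2 fold change 0.38, adjusted p = 0.0662, edgeR). Its activator and scaffold INCENP had a log2 fold change of 0.20, the targeting subunit survivin (BIRC5) one of 0.18 and borealin (CDCA8) one of 0.10. For all 4 genes both knockdown libraries lay above both control libraries. This also held for 42 of the 53 mitotic genes and for 27.7% of all genes tested.

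Of the 9 mitotic kinesins, KIF11, KIF15 and KIF20A rose. KIF11 (ENSG00000138160, chr10:92574105-92655395), the Eg5 motor that slides antiparallel microtubules apart and so separates the spindle poles, was at 101 and 90.5 CPM in the control and 167 and 160.0 CPM in the knockdown replicates (log2 fold change 0.77, standard error 0.12, adjusted p = 0.00473, edgeR). KIF15 (chr3:44761721-44873376), a motor that can take over from KIF11 in keeping the spindle bipolar, rose from 25.01 and 22.2 CPM to 36.9 and 33.4 CPM (0.57, standard error 0.13, adjusted p = 0.0224, edgeR). Both motors of bipolar spindle assembly were thus higher. The call of KIF15 was lost without control replicate 2 (adjusted p = 0.117, edgeR) and without knockdown replicate 1 (0.0933). Scaled by exon length, KIF15 had the lowest level of the 53 genes in control cells, 4.47 CPM per kilobase.

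KIF20A, the MKLP2 motor that brings the passenger complex to the central spindle, rose from 123 and 106 CPM to 158 and 164 CPM (log2 fold change 0.49, standard error 0.13, adjusted p = 0.0356, edgeR). Its call was lost without control replicate 2 (adjusted p = 0.301, edgeR), knockdown replicate 1 (0.0936) or knockdown replicate 2 (0.167). Its relative KIF20B, a motor of late cytokinesis, had a log2 fold change of 0.41 (adjusted p = 0.0965, edgeR). KIF14, which acts at the midbody, KIF4A, a chromosome-bound motor, and KIF18A, which dampens chromosome movement, had log2 fold changes of 0.25, 0.18 and 0.18.

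KIF23, the MKLP1 motor of the central spindle, and KIF2C, which depolymerizes microtubules at centromeres, did not separate by condition. KIF23 was at 157 and 145 CPM in control and 153 and 147 CPM in knockdown cells (log2 fold change -0.01, 95% confidence interval -0.28 to 0.26). KIF2C was at 131 and 118 CPM against 121 and 122 CPM (-0.04, interval -0.31 to 0.23).

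Of the 9 spindle assembly and cytokinesis genes, NUSAP1, which bundles microtubules near chromosomes, rose from 87.4 and 82.5 CPM to 118.6 and 119.7 CPM (log2 fold change 0.49, standard error 0.12, adjusted p = 0.0255, edgeR). Without any 1 library its log2 fold change was between 0.45 and 0.53, and it was called in 6 of 10 alternatives. OIP5 and OIP5-AS1 cover 15.2% of its exon bases, and how this overlap affects its count is not known. TPX2, the activator of AURKA on the spindle, was at 336 and 316 CPM in control and 441 and 405 CPM in knockdown cells (log2 fold change 0.37, adjusted p = 0.113, edgeR). ASPM, a spindle pole protein, DLGAP5, which stabilizes kinetochore fibres, and HMMR, a spindle-associated hyaluronan receptor, had log2 fold changes of 0.27, 0.22 and 0.12. PRC1, the crosslinker of the central spindle, had one of 0.24, with 34.3% of its exon bases shared with PRC1-AS1.

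The remaining genes of this role act at the cleavage furrow, and none was called. RACGAP1, the partner of KIF23 in the centralspindlin complex, was at 204 and 202 CPM in the control and 217 and 227 CPM in the knockdown replicates (log2 fold change 0.13). ECT2, the exchange factor that activates RhoA at the furrow, had one of 0.12, and in both genes each knockdown value lay above each control value. ANLN, the anillin scaffold of the contractile ring, had the highest level per length of the 53 genes, with 102 CPM per kilobase in control cells. It was at 696 and 526 CPM in control and 629 and 477 CPM in knockdown cells (log2 fold change -0.14, 95% confidence interval -0.56 to 0.28), and the groups overlapped because replicate 1 exceeded replicate 2 both in control and in knockdown cells.

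MKI67, the proliferation marker that coats mitotic chromosomes, had a difference that varied with the libraries used. It was at 569 and 438 CPM in the control and 924 and 580.2 CPM in the knockdown replicates, the highest value in knockdown replicate 1 and the lower knockdown value close to the higher control value. Knockdown exceeded control by 0.58 on the log2 scale, and the standard error of 0.22 was the largest of the 53 genes (adjusted p = 0.130, edgeR). The value was 0.86 on the log2 scale without knockdown replicate 2 (adjusted p = 0.0184, edgeR) and 0.21 without knockdown replicate 1 (0.750). Without control replicate 1 the adjusted p of edgeR was 0.0351. DESeq2 gave an adjusted p of 0.0409.

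The difference between replicates went with transcript length, with exceptions. The 7 mitotic genes with at least 8000 exon bases had a median log2 difference of replicate 1 over replicate 2 of 0.31 in control and 0.35 in knockdown cells, against 0.07 and -0.01 for the other 46. Spearman's rho between exon length and this difference was 0.53 in control and 0.52 in knockdown cells over the 53 genes, which share their libraries, and 0.13 in either condition over 15183 genes with a length. The relation of exon length to the fold change itself had a rho of 0.01. The same 7 genes had a median standard error of 0.155, against 0.122 for the others. Of the 7, MKI67, ASPM, CENPF, KNL1, CENPE and ESPL1 were higher in replicate 1 in either condition, and BUB3, with 8175 exon bases, was lower. ANLN, with 5997 exon bases, had differences of 0.40 in either condition, above those of CENPF, KNL1, CENPE and ESPL1, and CENPM, with 1750 exon bases, had one of -0.28 in control cells. The part of fragment length or RNA quality in this offset was not tested.

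**Figure D4:**
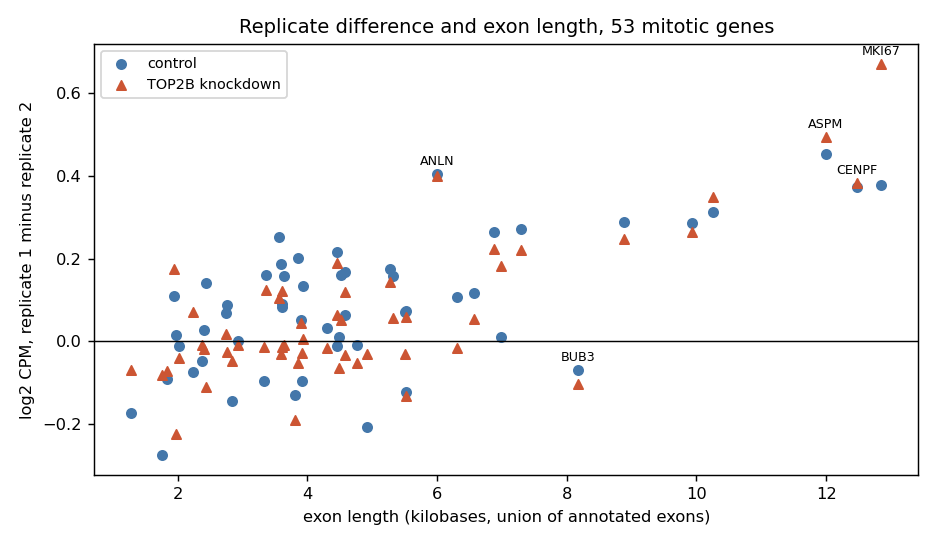
Log2 CPM of replicate 1 minus replicate 2 (y axis) against exon length in kilobases (x axis) for the 53 mitotic genes, in control cells (circles) and TOP2B knockdown cells (triangles). The 3 longest genes, MKI67, CENPF and ASPM, lie above 0.3 in both conditions, and BUB3 lies below 0.

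As the plot against exon length shows, circles and triangles of the longest genes lay at nearly the same height, apart from those of MKI67 (0.38 and 0.67). Among 63 other mitotic genes, 14 rose and 0 fell (median log2 fold change 0.32, 57 of 63 above 0). The 4 with the smallest adjusted p were CDCA3, an adaptor for degradation of WEE1 (0.66, adjusted p = 0.00671, edgeR), the kinesin KIF18B (0.82, 0.0102), PKMYT1, which holds CDK1 inactive (0.77, 0.0109), and CENPH, a partner of CENPK and CENPM (0.64, 0.0156). Fewer of these genes, and fewer of all genes tested, were called in each fit without 1 library. Of 16 subunits and partners of the anaphase-promoting complex, 0 were called by edgeR or by DESeq2, and the median was -0.02. Over all genes tested edgeR called 6.66% higher and 4.18% lower, and at these shares a list of 16 would hold few calls. At an unadjusted p below 0.05 only CDC23 of this complex differed, with a log2 fold change of -0.35.

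Of 21 regulators of G2/M transcription, 5 rose and 0 fell. MYBL2, the B-MYB factor that activates mitotic promoters with MuvB, was at 36.2 and 45.4 CPM in control and 83.3 and 91.0 CPM in knockdown cells (log2 fold change 1.10, standard error 0.14, adjusted p = 0.00175, edgeR). Its fold change was above that of each of the 53 mitotic genes. E2F1, E2F8 and TFDP1, also called, rose by 0.74, 1.16 and 0.54 on the log2 scale. Fewer regulators, and fewer of all genes tested, were called without control replicate 2 or knockdown replicate 2. The MuvB subunits LIN9 and LIN54 had log2 fold changes of 0.40 and 0.20 and were not called, nor were E2F4 (0.33), RBL1 (0.32) and RBL2 (0.10), the E2F and pocket proteins of the DREAM complex. CDKN1A, the p21 inhibitor of cyclin-dependent kinases, was at 465 and 664 CPM in control and 303 and 425 CPM in knockdown cells (log2 fold change -0.63, adjusted p = 0.0863, edgeR), and it was called lower by DESeq2.

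DNA replication licensing and fork genes were the list with most calls, 25 of 36 higher and 0 lower, with a median of 0.63 and all 36 above 0. POLD1, LIG1, MCM6 and CDC45 had the smallest adjusted p. All lists share the same 4 libraries, and whether the mitotic and replication genes differ was not tested.

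**Figure D5:**
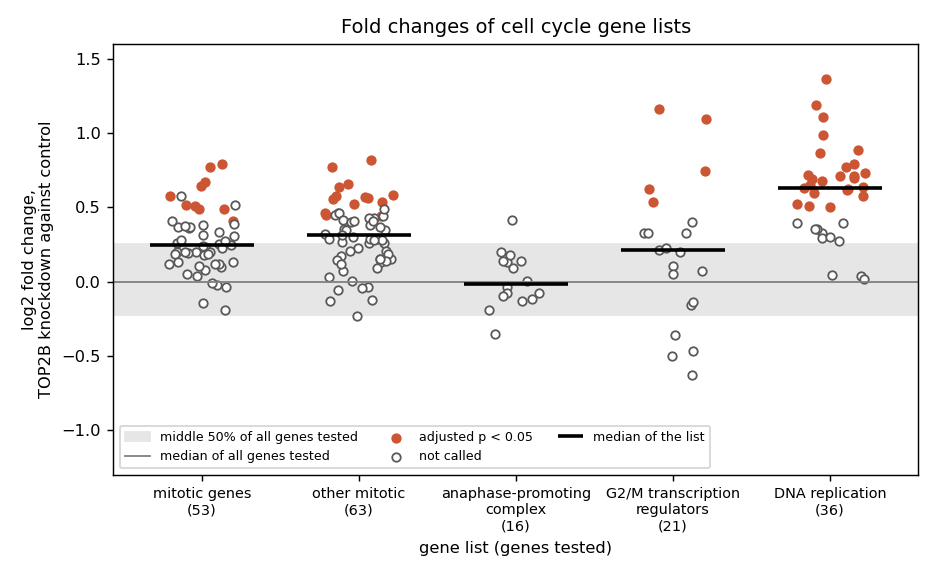
Log2 fold changes (y axis) of the mitotic genes and 4 further cell cycle gene lists (x axis, with the number of genes tested), 1 point a gene and filled where the adjusted p was below 0.05. The list medians are 0.25, 0.32, -0.02, 0.21 and 0.63 from left to right, beside the grey band of the middle 50% of all genes tested.

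In the plot of gene lists, the bulk of the mitotic genes sits at the upper edge of the grey band, and the replication genes lie mostly above it. The 6-base word GCAACC in the 3′ UTR was counted because it goes with higher fold changes in the whole table. It was chosen for that pattern in these same libraries, so its values are a description. It was present in 7 of the 53 mitotic genes (13.2%), ECT2, TTK, KIF20B, KIF11, BIRC5, SPC24 and CENPI, and in 23.4% of the 12529 tested genes with a 3′ UTR. The sites of the 3 genes with the word that were called, TTK, KIF11 and SPC24, are shown with 12 bases on either side (GRCh38, 5′ to 3′ on the transcript), with the word in capitals.
TTK (chr6:80042351-80042380, plus strand): actgtaaaaataGCAACCacttatggcact
KIF11 (chr10:92655060-92655089, plus strand): atttttgatctgGCAACCatatttctggaa
SPC24 (chr19:11147003-11147032, minus strand): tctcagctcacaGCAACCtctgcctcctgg

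The 7 genes with the word had a median log2 fold change of 0.41, and 3 of them were called. ECT2, BIRC5 and CENPI, with values of 0.12, 0.18 and 0.05, hold the word and were not called. For the 46 genes lacking the word the median was 0.24, and 7 of them were called. Among all tested genes with a 3′ UTR, 12.6% of the 2930 with the word were called higher, against 5.98% of the 9599 without it. The word was counted as present or absent without regard to 3′ UTR length, so the groups may differ in length. The part of this word in the rises of TTK, KIF11 and SPC24 was not tested.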

How the data were processed

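RNA-seq was done on 2 control and 2 TOP2B knockdown samples of RPE1 SunTag cells, which the study calls independent biological replicates. Reads (single-end, 65 bp) were checked by the authors with FastQC 0.11.6 and mapped to GRCh38 with STAR 2.5.4a, which also counted them on Gencode 24 genes. The deposited values are raw counts per gene, whole numbers and not normalized. A tag for stranded paired-end reads stands in the column names, while STAR's outWigStrand option was set to Unstranded. That option governs signal tracks, and which strand column of the counts was kept is not given in the sources used here. The table repeats its 4 columns with identical values, and these 4 copies were not used.

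A gene was kept if 2 or more libraries gave it 10 or more counts. Fold changes are from edgeR 4.0.16 in R 4.3.3 (quasi-likelihood F-test, TMM, no covariate) with p-values adjusted by the Benjamini-Hochberg method over all 15356 genes and a call at 0.05. CPM was TMM-scaled, and 1 CPM equals 20.3 to 23.9 reads. Standard errors and 95% intervals derive from the F statistic. P-values set the difference between conditions against the spread between these samples, which edgeR estimates partly from all genes. In a fit without 1 library, the lone library of a condition is assumed to vary like the others. DESeq2 1.42.0 was an alternative. Symbols, positions, exon lengths and 3′ UTRs came from GENCODE 44, which held 98.9% of the tested genes, and promoters from RefSeq (GRCh38.p14). The scripts were tested on simulated data. The members, the 7 other lists and the word GCAACC were chosen with earlier results of these data known. All 53 members are named, with full statistics for those called. Of the other lists, the 4 smallest adjusted p were named, and of the regulators also the FOXM1 partners and CDKN1A. The values of 1 called regulator are not reported here.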

Additional observations from a re-analysis of the deposited data

How the results depend on the processing

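The number of mitotic genes called higher was 8 with the size factors of DESeq2, 9 with library size alone, 9 with DESeq2, 11 without a filter and 9 when a mean of 100 counts was required, and between 4 and 8 in the fits without 1 library. The median log2 fold change of the 53 genes was between 0.20 and 0.31 in those fits. Of all genes tested, 1023 were called higher by edgeR with all 4 libraries. That number was 974 with the size factors of DESeq2, 988 with library size alone and 917 with DESeq2. It was 1358 without a filter and 825 when a mean of 100 counts was required. Fewer of all genes tested were also called higher in each fit without 1 library. The mitotic counts moved in the same direction, so their changes are not results about the mitotic genes alone. Without 1 library, between 7 and 10 of the other mitotic genes were called. With the replicate number as a replicate block, 38 mitotic genes were called higher and 2 lower (ANLN and CDC25B), with 49 other mitotic genes, 6 of the anaphase-promoting complex and 15 regulators called. Over all genes that fit called 3440 higher and 3346 lower. Same-numbered samples deviated together (r = 0.48 over all genes and 0.78 over the 53 genes). There are only 2 pairs and no label ties them, so whether same-numbered samples were prepared together is not known. Small fold changes changed sign in fits without 1 library: that of NUF2 ranged from -0.10 to 0.058, KIF23 from -0.066 to 0.052, KIF2C from -0.12 to 0.043, ANLN from -0.35 to 0.073 and CENPI from -0.036 to 0.13. With standard errors of 0.11 to 0.22, 2 replicates limit what can be called: the smallest called log2 fold change was 0.41.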
